A study of Sus scrofa with 20 samples.

Results

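Amino acid catabolism was examined in backfat and liver of Nanchukmacdon pigs through 9 genes, TAT, HPD, HGD, FAH, TDO2, SDS, BCAT2, BCKDHA and BCKDHB, given as a list of symbols and grouped into 5 genes of aromatic amino acid breakdown, 1 of serine breakdown and 3 of branched-chain breakdown. Each symbol matched 1 Ensembl identifier among the 31907 genes of the count table, and all 9 were among the 16275 genes that passed the filter on low counts. RNA-seq was performed on bulk tissue of boars labelled WT, normal and 22 months of age (the study's own text gives another age), with 5 backfat and 5 liver libraries that carry the boar numbers 65, 67, 69, 71 and 72 in their names. No treatment, transgene or deletion was named for either tissue. The replicate numbers of the labels could not be matched to these boars, and each library goes by its tissue and boar number.

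Tyrosine is broken down in a chain of steps that ends in fumarate and acetoacetate, and the liver is the organ best known for it. TAT starts the chain, HPD and HGD are dioxygenases that follow in that order, and FAH makes the last cut. TDO2 opens the kynurenine route of tryptophan, and SDS turns serine into pyruvate. Branched-chain amino acids take another course: BCAT2 removes their amino group in mitochondria. BCKDHA and BCKDHB form the part of the branched-chain ketoacid dehydrogenase complex that removes carbon dioxide. Muscle and fat are known to carry out both steps.

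The 250 bases before the RefSeq start of each gene were read from Sscrofa11.1, the build used for the counts. Those of the 4 genes that were nearly silent in backfat are shown with those of the dehydrogenase subunits that both tissues expressed, so that the difference in CG pairs can be seen. All are given 5′ to 3′ on the strand of the gene, with each CG pair in capitals.
TAT, chr6:14583204-14583453, minus strand: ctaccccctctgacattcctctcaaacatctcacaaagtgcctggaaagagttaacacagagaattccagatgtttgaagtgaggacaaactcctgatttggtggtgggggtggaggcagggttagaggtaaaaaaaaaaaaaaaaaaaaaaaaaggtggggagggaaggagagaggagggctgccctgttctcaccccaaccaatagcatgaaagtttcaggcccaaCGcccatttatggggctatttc
HPD, chr14:30845358-30845607, plus strand: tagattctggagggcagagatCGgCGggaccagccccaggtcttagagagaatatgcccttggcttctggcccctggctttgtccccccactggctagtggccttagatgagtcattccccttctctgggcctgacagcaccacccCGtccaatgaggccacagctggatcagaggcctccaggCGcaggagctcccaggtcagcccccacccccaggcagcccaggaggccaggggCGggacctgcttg
HGD, chr13:139660065-139660314, plus strand: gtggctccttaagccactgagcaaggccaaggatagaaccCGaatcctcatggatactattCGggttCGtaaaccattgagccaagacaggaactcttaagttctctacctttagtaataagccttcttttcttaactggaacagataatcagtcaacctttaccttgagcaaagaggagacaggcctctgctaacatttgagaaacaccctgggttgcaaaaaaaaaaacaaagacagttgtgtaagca
TDO2, chr8:44708472-44708721, plus strand: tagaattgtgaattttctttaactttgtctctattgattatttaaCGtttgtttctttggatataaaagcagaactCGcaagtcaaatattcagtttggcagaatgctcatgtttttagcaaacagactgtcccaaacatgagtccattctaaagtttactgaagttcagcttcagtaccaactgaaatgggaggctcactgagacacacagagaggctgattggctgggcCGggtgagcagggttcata
BCKDHA, chr6:49381745-49381994, plus strand: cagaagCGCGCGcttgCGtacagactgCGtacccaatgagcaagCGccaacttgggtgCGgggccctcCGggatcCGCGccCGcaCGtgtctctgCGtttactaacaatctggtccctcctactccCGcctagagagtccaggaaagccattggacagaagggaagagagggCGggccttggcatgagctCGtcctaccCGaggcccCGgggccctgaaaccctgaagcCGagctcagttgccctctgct
BCKDHB, chr1:86017662-86017911, minus strand: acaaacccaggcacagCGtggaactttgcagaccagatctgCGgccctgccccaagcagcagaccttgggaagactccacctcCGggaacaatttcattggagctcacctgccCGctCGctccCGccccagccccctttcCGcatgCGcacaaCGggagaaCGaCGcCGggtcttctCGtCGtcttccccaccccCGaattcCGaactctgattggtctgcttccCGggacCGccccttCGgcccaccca

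These windows held 1 CG pair before TAT, 3 before HGD, 3 before TDO2 and 5 before HPD. SDS had 7 and FAH 9, whereas BCAT2 had 13 and BCKDHA and BCKDHB had 19 each. All 6 aromatic and serine genes were thus below the median of 12 CG pairs over 19556 promoters of protein-coding genes, and all 3 branched-chain genes were above it. The wider lists of amino acid catabolism genes described later were split by call and not by pathway, and there the medians were close. Leaving out the 9 genes, and FTCD, MMUT and SLC7A5, for which no window was matched by symbol, the 28 listed genes called higher in liver had a median of 14.5 CG pairs, from 0 to 45, and the 33 not called in either direction had a median of 14, from 0 to 37. Methylation at these sites was not analysed here, because the authors' files of cytosine calls carry no genomic position and were not used.

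**Figure D1:**
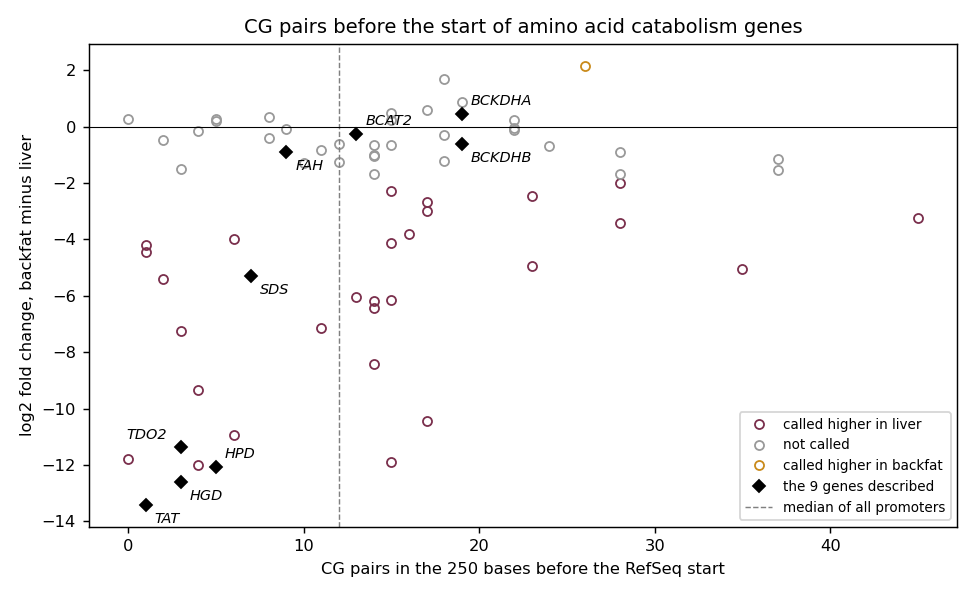
Number of CG pairs in the 250 bases before the RefSeq start (x axis) against the log2 fold change between tissues, backfat minus liver (y axis), with 1 point per gene of the amino acid catabolism lists. The 9 genes described are filled diamonds, and the dashed line is the median of 12 over all promoters; genes called higher in liver lie on both sides of it.

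Of 5 short motifs searched on both strands of these windows, GGGCGG, the core of the GC box, was found before HPD, FAH, SDS and all 3 branched-chain genes, and 45.9% of all promoters hold it. TGTTCT, part of the steroid hormone response element, was found only before TAT among the 9 genes, 63 to 58 bases before the start (10.3% of all promoters). TATAAA was found only before TDO2, 189 to 184 bases before the start (9.77% of all promoters). GTTAAT (5.90% of all promoters) and CAAAGTC (2.93%), parts of the elements bound by HNF1 and HNF4, were found before none of the 9. These are matches of letters, and binding was not measured.

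The libraries held between 43820042 and 61772737 counted read pairs. Counts were scaled by the trimmed mean of M-values (TMM) and are given as CPM, counts per 1000000, and tissues were compared with edgeR's quasi-likelihood test, with p-values adjusted by Benjamini-Hochberg over all genes tested. A gene was called where the adjusted p was at most 0.05 and the log2 fold change at least 2 in either direction. Of all genes tested, 11.2% were called higher in liver and 11.1% higher in backfat, and at the adjusted p alone these were 27.0% and 28.0%. The libraries of the tissues did not overlap in 19.7% of genes, with liver higher, and in 22.9%, with backfat higher. The tissues carried their own markers, since 7 adipocyte genes took 1.51% to 2.22% of the counts in backfat and at most 0.00179% in liver, and 10 hepatocyte genes took 2.40% to 10.5% in liver and 0.0202% to 0.0740% in backfat.

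A library of each tissue stood apart, and both bear on the genes described. Liver 67 had 44.5% of its counts on 13 protein-coding mitochondrial genes, against 6.38% to 20.2% in the other liver libraries. Its hepatocyte genes took 2.40% of the counts, against at least 7.37%, and its 4 measured skeletal muscle genes took 0.0123%, against at most 0.000126%. Its 3 measured red cell genes took 0.127%, against 0.00625% to 0.0283% in the other liver libraries. In backfat the same 4 skeletal muscle genes took 0.00134% (backfat 72) to 0.0588% (backfat 65) of the counts. Their part in the backfat values was not tested. Backfat 69 had the highest share of hepatocyte genes among backfat libraries, 0.0740% against at most 0.0296%. For the 9 genes, values without either library are given where the library moves the call or the size, and for genes of the wider pathway lists where most backfat reads came from backfat 69 or the test changed, which was added after seeing the data. In bulk tissue, fewer cells of a type and less RNA per cell cannot be told apart.

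Aromatic and branched-chain genes were divided between the tissues as follows. All 4 of TAT, HPD, HGD and TDO2 were called higher in liver by a log2 difference of more than 11, and FAH, the last gene of the same tyrosine chain, was only 1.89-fold higher. With SDS, 5 of 6 aromatic and serine genes were called higher in liver, where 11.2% of all genes were. All 6 passed the adjusted p alone with liver higher, where 27.0% of all genes did. None of the 3 branched-chain genes was called in either direction, where 22.3% of all genes were, a background at which 0 of 3 is not a result about them. The 1 that passed the adjusted p alone, BCKDHA, was higher in backfat, where 28.0% of all genes passed in that direction. The libraries of the tissues did not overlap for the 5 aromatic genes, with liver higher, where 19.7% of all genes were so separated. Among the 3 branched-chain genes they did not overlap for BCKDHA alone, with backfat higher. At a share of 22.9% of all genes, this is not a result about the branched-chain genes.

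**Figure D2:**
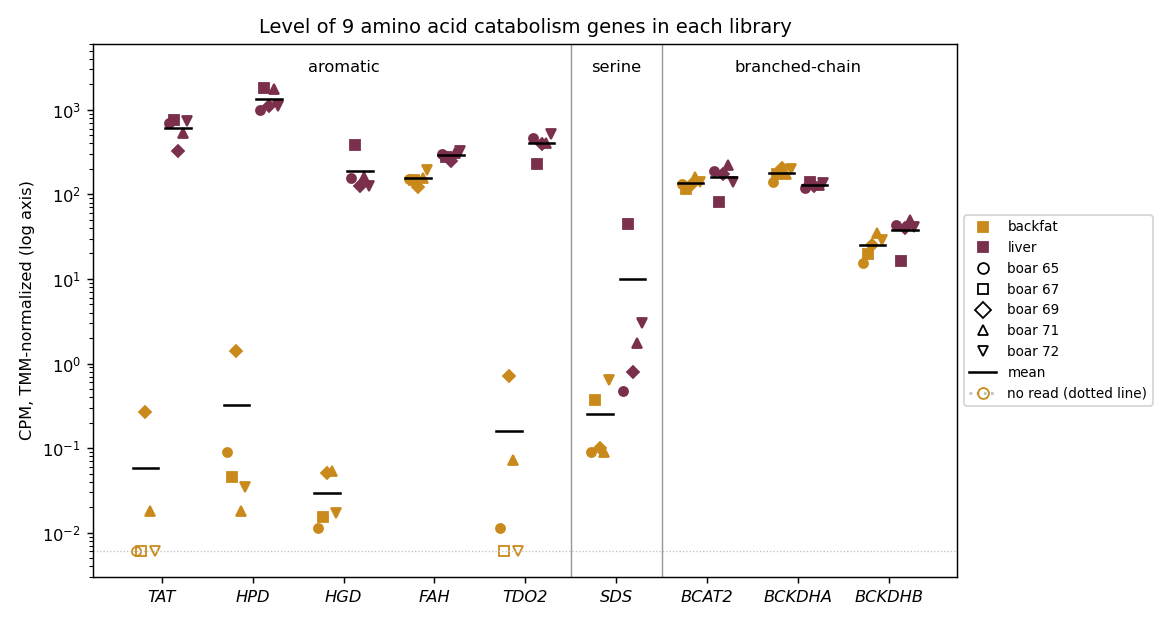
Level of each of the 9 genes in each library, in TMM-normalized CPM on a log axis, with backfat and liver side by side, symbols for boars and black bars for the mean of 5 libraries. Open symbols on the dotted line are libraries with no read. TAT, HPD, HGD and TDO2 lie far apart between tissues, FAH and the branched-chain genes lie close together, and SDS is high in liver 67 alone.

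TAT (ENSSSCG00000002736, chr6:14571311-14583203, minus strand, 12 exons in RefSeq), the aminotransferase that commits tyrosine to breakdown, gave 0, 0, 16, 1 and 0 read pairs in backfat 65, 67, 69, 71 and 72. In liver of the same boars it stood at 702, 762, 329, 528 and 745 CPM. Backfat was thus at or near 0 in every library except backfat 69, while liver 69 was the lowest of the liver libraries. The log2 fold change, backfat minus liver, was -13.41 ± 1.02 (SE, n = 5 per tissue, adjusted p = 3.24e-07). Such a fitted value depends on the small count that edgeR adds near 0, so the ratio of the liver mean to the pooled backfat level is given too. It was 11812 (95% exact Poisson interval from the backfat reads, 7378 to 20277, counting error only), and 164350.5 (29498 to 6491497) without backfat 69, where 1 read pair was left. Such intervals, here and for HPD, HGD and TDO2 below, leave out the spread between libraries of either tissue.

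HPD (ENSSSCG00000009805, chr14:30845608-30857658, plus strand, 13 or 14 exons), which turns the product of TAT into homogentisate, gave 8, 3, 84, 1 and 2 read pairs in backfat. In liver its level was 997, 1796, 1120.4, 1754 and 1105 CPM for boars 65, 67, 69, 71 and 72. Liver 67 and liver 71 were the higher ones, and all liver libraries were far above backfat. This gave a log2 fold change of -12.05 ± 1.28 (SE, adjusted p = 5.73e-06), and the ratio of liver to pooled backfat was 4526 (95% interval, 3714 to 5575), or 25929 (15454 to 47428) without backfat 69.

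HGD (ENSSSCG00000021227, chr13:139660315-139710402, plus strand, 14 exons), the next dioxygenase, gave 1, 1, 3, 3 and 1 read pairs in backfat, with no library standing out. Its liver levels were 158, 380, 125, 161 and 126 CPM, so that liver 67 was above the other 4. With a log2 fold change of -12.62 ± 0.56 (SE, adjusted p = 6.25e-09), HGD had the smallest error of the 4 nearly silent genes. The ratio of liver to pooled backfat was 6911 (95% interval, 3641 to 15115).

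TDO2 (ENSSSCG00000008868, chr8:44708722-44725954, plus strand, 12 exons), the dioxygenase that opens the tryptophan ring, gave 1, 0, 42, 4 and 0 read pairs in backfat. In liver it stood at 466, 229, 395, 401 and 511 CPM. Here liver 67 was the lowest, the reverse of its place for HGD. Between tissues it differed by a log2 fold change of -11.34 ± 1.12 (SE, adjusted p = 3.21e-06), and the ratio was 2790.3 (95% interval, 2098 to 3798), or 21467 (9199 to 66114) without backfat 69.

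Most backfat reads of TAT (94.1%), HPD (85.7%) and TDO2 (89.4%) came from backfat 69, whereas HGD had 33.3% of its reads there. In that library the 4 genes were at 0.0266% to 0.176% of their liver means. The 10 hepatocyte markers were at 0.0860% to 3.31% of their liver means there, with a median of 0.147%, and 9 of them were highest in backfat 69 among backfat libraries. Albumin, the main protein made by hepatocytes, was at 36.4 CPM there against 0.126 to 0.351 CPM in the other 4. The number of hepatocyte markers with no read was 0 in backfat 69 and 1 to 4 in the others. The part of these markers in the aromatic reads of backfat 69 was not tested.

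FAH (ENSSSCG00000001780, chr7:49047833-49087790, plus strand, 14 exons), the hydrolase that ends tyrosine breakdown, behaved unlike the other 4 aromatic genes. Its levels were 151, 149, 122, 156 and 195 CPM in backfat and 299.6, 277, 248, 309 and 323 CPM in liver. Every liver library lay above every backfat library, but by a small margin. The log2 fold change was -0.91 (95% confidence interval, -1.31 to -0.52, adjusted p = 0.000916), which passed the adjusted p and not the fold threshold. With scaling by library size alone it was -0.20 (adjusted p = 0.387). Within a library, FAH stood to HGD, per base of exon, at 0.358 to 1.26 in liver and at 1189 to 6576 in backfat, where HGD rested on 1 to 3 read pairs. These ratios used Ensembl exon lengths, 3887 bases for FAH and 1908 for HGD. With RefSeq lengths, 1609 and 1741 bases, every ratio would be higher, so the liver ratios do not show which gene was higher. FAH overlaps a tRNA gene on the opposite strand, and the counting did not use strand.

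SDS (ENSSSCG00000036865, chr14:38503922-38513908, plus strand, 8 exons), serine dehydratase, was the least expressed of the 9 genes in liver. Its levels were 0.0902, 0.366, 0.101, 0.0901 and 0.635 CPM in backfat and 0.474, 44.1, 0.786, 1.74 and 2.98 CPM in liver of boars 65, 67, 69, 71 and 72. Liver 67 alone was high, and liver 65 lay below backfat 72, so the tissues overlapped. The log2 fold change of -5.29 ± 1.31 (SE, adjusted p = 0.00438) fell to -2.57 ± 0.72 (adjusted p = 0.00921) without liver 67, and to -3.73 with boar as a replicate block. It therefore remained past both thresholds in these fits, with a size that rested on 1 library. DESeq2 gave no adjusted p for SDS, and a filter of at least 10 counts in every library removed it.

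BCAT2 (ENSSSCG00000003139, chr6:54107682-54123595, minus strand, 10 to 12 exons), the mitochondrial aminotransferase of leucine, isoleucine and valine, was expressed at like levels in both tissues. It stood at 131, 115, 130.5, 159 and 138 CPM in backfat and at 187, 81.8, 173, 225 and 139.9 CPM in liver, with liver 67 below every other library of either tissue. Its log2 fold change was -0.26 (95% confidence interval, -0.78 to 0.27, adjusted p = 0.389), and it was -0.46 (adjusted p = 0.0429) without liver 67. A RefSeq long noncoding RNA overlaps BCAT2 on the opposite strand, and its reads cannot be told apart in these counts.

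BCKDHA (ENSSSCG00000028794, chr6:49381995-49398745, plus strand, 8 to 10 exons), the alpha subunit of the dehydrogenase, was the only one of the 9 genes with a higher mean in backfat. Its levels were 139, 173, 204, 177 and 202 CPM in backfat and 118, 138, 127, 130.4 and 137 CPM in liver. The lowest backfat library and the highest liver library differed by less than 1 CPM, so the tissues were barely separated. The log2 fold change was 0.46 (95% confidence interval, 0.11 to 0.81, adjusted p = 0.0286). With scaling by library size alone it was 1.17 (adjusted p = 6.45e-05). The call at the adjusted p alone was not stable, since the adjusted p was 0.0551 with boar as a replicate block. It lay between 0.0551 and 0.0668 when backfat 69, backfat 72, liver 65, liver 69, liver 71 or liver 72 was left out.

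BCKDHB (ENSSSCG00000004465, chr1:85755819-86017661, minus strand, 10 or 11 exons), the beta subunit, had the opposite sign. It stood at 15.6, 19.5, 25.3, 35.0 and 29.1 CPM in backfat and at 43.5, 16.2, 40.2, 49.3 and 41.5 CPM in liver. Liver 67 was the only liver library within the backfat range. Its log2 fold change was -0.62 (95% confidence interval, -1.25 to 0.02, adjusted p = 0.0924), and it was -0.85 (adjusted p = 0.00583) without liver 67. Subunits of 1 complex thus had opposite signs, by less than the fold threshold in each case, and BCKDHB did not pass the adjusted p. The opposite signs depended on the scaling. With scaling by library size alone BCKDHB was at 0.067 and BCKDHA at 1.17, both towards backfat. The ratio of BCKDHA to BCKDHB, per base of exon, was 3.68, 3.66, 3.31, 2.08 and 2.85 in backfat of boars 65, 67, 69, 71 and 72, and 1.12, 3.52, 1.30, 1.09 and 1.36 in liver, so liver 67 had a ratio in the range of backfat. With RefSeq exon lengths every one of these ratios is 1.88-fold higher, so only differences between libraries are read from them.

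The liver libraries differed among themselves in a way that the 9 genes did not share. Liver 67 was the highest of 5 for TAT, HPD, HGD, SDS and BCKDHA and the lowest for TDO2, BCAT2 and BCKDHB. Against the median of the other 4, it was 35.0-fold higher in SDS and 2.68-fold higher in HGD, and it was 2.63-fold lower in BCKDHB, 2.20-fold lower in BCAT2 and 1.89-fold lower in TDO2. FAH and BCKDHA varied little, from 248 to 323 CPM and from 118 to 138 CPM over the 5 liver libraries. The part of the mitochondrial share and of the skeletal muscle and red cell genes of liver 67 in these values was not tested.

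**Figure D3:**
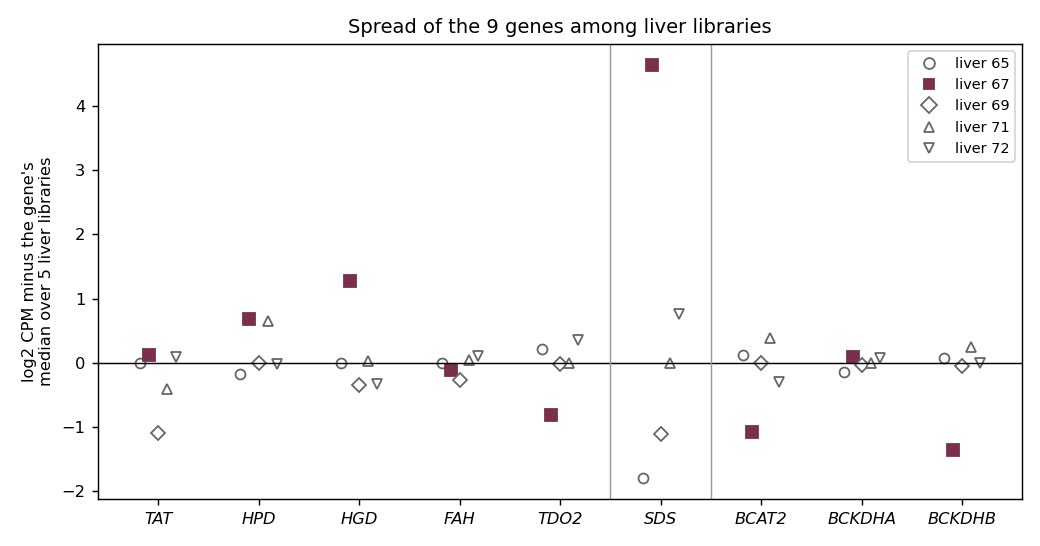
Log2 CPM of each of the 9 genes in each of the 5 liver libraries, minus the median of that gene over the 5 libraries. Liver 67, the filled square, is highest for SDS and HGD and lowest for TDO2, BCAT2 and BCKDHB.

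Levels were compared between genes per length, as RPKM, the TMM-normalized CPM divided by the exon length in kilobases. In liver the order of the means was HPD at 775 ± 222 RPKM (SD, n = 5), TAT at 198 ± 59.4, TDO2 at 102 ± 27.3, HGD at 99.6 ± 56.5, FAH at 75.0 ± 7.51, BCAT2 at 30.2 ± 10.1, BCKDHA at 20.4 ± 1.29, BCKDHB at 14.5 ± 4.86 and SDS at 5.81 ± 11.1. The 5 liver libraries of neighbours in this order overlapped, except those of HPD (571 to 1028 RPKM) and TAT (106 to 246 RPKM) and those of FAH (63.9 to 83.1 RPKM) and BCAT2 (15.3 to 42.1 RPKM). In backfat FAH led at 39.8 ± 6.70 RPKM, followed by BCKDHA at 28.1 ± 4.12, BCAT2 at 25.2 ± 2.97 and BCKDHB at 9.49 ± 2.93, and no other member reached 0.2 RPKM as a mean. Lengths were those of the Ensembl exons used for counting. For BCKDHA these add up to 6370 bases, against 2020 in RefSeq, and with RefSeq lengths BCKDHA would lie above BCAT2 in liver, and FAH above HGD.

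Summed over the 5 aromatic genes, liver had 978 to 1603 RPKM and backfat 32.6 to 50.1 RPKM, nearly all of it FAH. Summed over the 3 branched-chain genes, liver had 43.2 to 81.3 RPKM and backfat 52.3 to 70.8 RPKM, with liver 67 the lowest of all. On the log2 CPM scale, the mean of the aromatic genes minus the mean of the branched-chain genes was 1.82 to 3.15 in liver and -8.49 to -6.08 in backfat. The highest value of each tissue belonged to liver 67 and backfat 69. These means include low counts and depend on the added count of 2 reads, and no test was made on them.

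**Figure D4:**
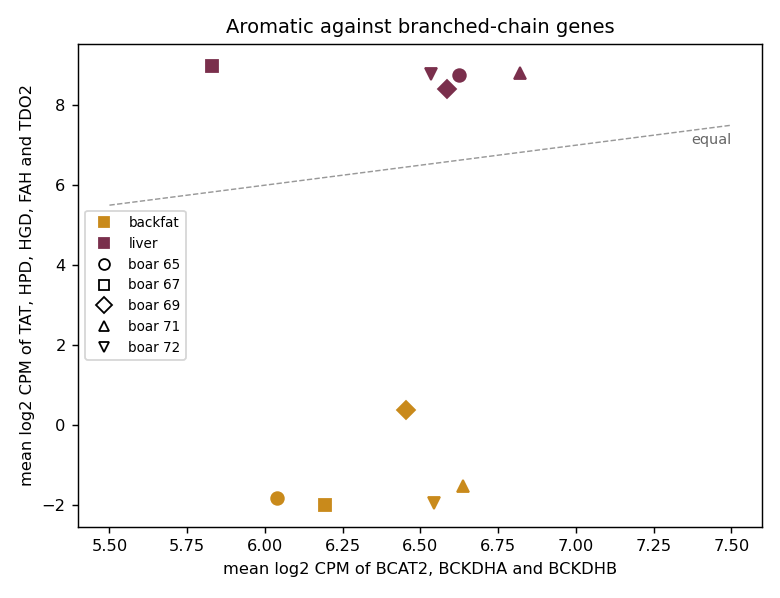
Mean log2 CPM of the 5 aromatic genes (y axis) against that of the 3 branched-chain genes (x axis), with 1 point per library, colours for tissues and symbols for boars. Liver lies above the dashed line of equal means and backfat below it; along the x axis the tissues overlap, with liver 67 at the far left.

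The genes around the 9 were taken from lists of amino acid pathways, which include the 9 themselves. Of all genes tested, 11.2% were called higher in liver, and 27.0% passed the adjusted p alone in that direction. In tyrosine and phenylalanine breakdown all 9 listed genes were tested, and 5 were called higher in liver. All 9 passed the adjusted p alone in that direction, with a median log2 fold change of -2.47 against 0.00 over all genes tested. Without the members, 2 of 5 were called, all 5 passed the adjusted p alone, and the median was -1.69. GSTZ1, the isomerase just before FAH, was higher in liver by a smaller step, with means of 183 against 32.9 CPM (-2.47). The cofactor enzymes PCBD1 (-1.69) and QDPR (-1.53) and the aminotransferase GOT1 (-1.05) passed the adjusted p and not the fold threshold.

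In the tryptophan list 8 of 11 tested genes were called higher in liver, beside 11.2% of all genes, and none higher in backfat. The median log2 fold change was -5.06. Without TDO2, 7 of 10 were called higher in liver and the median was -4.75. Next to TDO2 the largest differences were those of QPRT, which leads towards NAD, at -10.45 and IDO2 at -7.26. Of the 37 backfat read pairs of QPRT 32 came from backfat 69, and the fold change was -12.96 with backfat 69 left out. KMO (-5.39), KYNU (-4.21) and HAAO (-6.15) of the later kynurenine route were also called. IDO1, the enzyme that opens tryptophan outside the liver, was low in both tissues, at 0.660 ± 0.477 CPM in backfat and 0.928 ± 0.846 CPM in liver (log2 fold change -0.49, adjusted p = 0.551), and KYAT3 did not pass the test (-0.07, adjusted p = 0.817).

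In the serine, glycine and threonine list 6 of 8 tested genes were called higher in liver, beside 11.2% of all genes, with a median of -4.54. Without SDS, 5 of 7 were called and the median was -3.80. SDSL, a close relative of SDS, was at 0.0472 ± 0.0962 CPM in backfat and 162 ± 105 CPM in liver (log2 fold change -11.78), so it far exceeded SDS itself in liver. Backfat 69 held 13 of its 14 backfat read pairs, and the log2 fold change was -14.67 without it. AGXT (-8.42) and GLDC (-6.43) followed. SHMT2, the mitochondrial hydroxymethyltransferase, did not pass the test (-0.15, adjusted p = 0.622), whereas its cytosolic partner SHMT1 was called (-3.80).

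In the branched-chain list 1 of 23 tested genes was called higher in liver and none higher in backfat, where 11.2% and 11.1% of all genes were. At the adjusted p alone 7 passed with liver higher and 3 with backfat higher, beside 27.0% and 28.0% of all genes, and the median log2 fold change was -0.39. These counts rested on liver 67, since 13 passed with liver higher and 5 with backfat higher without it. The called gene was ACADSB, which oxidises the isoleucine product, at -2.01 ± 0.26 (SE, adjusted p = 2.96e-05). It lay at the fold threshold, and no gene of the list was called higher in liver with scaling by library size alone, with no filter beyond 1 count, with limma-voom or with glmTreat, nor without backfat 65, backfat 67, liver 69 or liver 72.

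Within the dehydrogenase complex the core subunit DBT was higher in liver (-0.63, adjusted p = 0.0166), and DLD, a subunit shared with other complexes, was higher in backfat (0.88, adjusted p = 0.00838). The kinase BCKDK, which switches the complex off, and the phosphatase PPM1K, which switches it on, did not pass the test (0.21 and 0.22, adjusted p = 0.489 and 0.593). Their 95% confidence intervals ran from -0.32 to 0.73 and from -0.49 to 0.93, so a difference towards liver as large as that of DBT lay outside both, and one towards backfat as large as that of DLD lay inside that of PPM1K only. Without liver 67 PPM1K passed, with backfat higher (0.63, adjusted p = 0.0152).

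In the leucine branch IVD was higher in liver (-0.99, adjusted p = 0.00190) and AUH higher in backfat (0.48, adjusted p = 0.00926). MCCC1 (-0.39, adjusted p = 0.0895) and MCCC2 (0.23, adjusted p = 0.395) did not pass. In the valine branch HIBCH (-0.81) and HIBADH (-1.22) passed the adjusted p with liver higher, and ALDH6A1 (-0.66, adjusted p = 0.0548) did not. ECHS1 (-1.16) and PCCA (-0.69) passed with liver higher, and ACAT1 (-0.08), PCCB (0.60), MCEE (-0.65), MMUT (-0.71) and the cytosolic aminotransferase BCAT1 (0.26) did not. Without liver 67 MCCC1 (-0.53), ALDH6A1 (-0.83), MCEE (-0.90), MMUT (-0.84) and BCAT1 (0.49) passed, and without backfat 69 MMUT passed (-0.81, adjusted p = 0.0467) and PCCA did not (-0.64, adjusted p = 0.0615).

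Other amino acid pathways were given by the same counts, beside 11.2% of all genes called higher in liver and 11.1% higher in backfat. At the adjusted p alone, 27.0% of all genes passed with liver higher. All 4 histidine genes were called higher in liver, led by UROC1 (-12.00), FTCD (-11.12) and HAL (-4.00), and all 6 tested methionine and cysteine genes, led by BHMT (-11.89), MAT1A (-10.93) and GNMT (-6.19). Backfat 69 held 96.7% of the backfat read pairs of BHMT, 65.4% of those of FTCD and 52.3% of those of MAT1A, and without it their log2 fold changes were -16.43, -12.40 and -11.76. In the proline, glutamate and aspartate list 3 of 5 were called higher in liver, GPT2 (-6.03), GLUD1 (-3.24) and ALDH4A1 (-2.28). None of the 4 lysine genes was called, and 3 passed the adjusted p alone with liver higher, or 4 without liver 67. Of 6 carriers, SLC38A4 was called higher in liver (-9.35) and SLC16A10, a carrier of aromatic amino acids, higher in backfat (2.15).

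The genes whose profile over the 10 libraries was most like that of the aromatic genes were SERPINA4, C4BPB and ONECUT1, by the root mean square difference of centred log2 CPM (0.374, 0.388 and 0.391). Those most like the branched-chain genes were RAB2A, PDAP1 and SMDT1 (0.117, 0.127 and 0.129). They were chosen for this likeness, and nothing else is read from it.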

How the data were processed

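Per the labels and the paper, the authors checked reads with FastQC and trimmed them with Trimmomatic before mapping with HISAT2 to Sscrofa11.1, and featureCounts 2.0.1 then assigned read pairs to Ensembl release 99 exons. Per the file headers, the count step used no strand and left out reads of several places. The table deposited by the authors holds these raw counts, with library totals from 43820042 to 61772737. The authors' files of cytosine calls by read position were not used, since they carry no genomic position.

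The test was edgeR's quasi-likelihood test (edgeR 4.0.16 in R 4.3.3; filterByExpr by tissue, TMM, tissue alone in the design), with Benjamini-Hochberg adjustment over 16275 genes. Calls used the study's thresholds, an adjusted p of 0.05 and a log2 fold change of 2. Standard errors came from the fold change and its F statistic. The study used DESeq2, which is an alternative here (DESeq2 1.42.0), with limma-voom (limma 3.58.1), glmTreat, other scalings and filters, counts without mitochondrial genes, a replicate block and libraries left out. Of these, edgeR's quasi-likelihood test, DESeq2, limma-voom and glmTreat were also run on simulated data, and the other alternatives were not. Libraries of 1 boar were paired by the boar number in their names; the correlations of their deviations from the tissue means were 0.238, 0.107, 0.0490, 0.165 and 0.0984.

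Named genes were the 9 genes, at most 3 called genes per list and direction, every branched-chain gene that could be reported, and the 3 most alike genes of each profile; GSTZ1, PCBD1, QDPR, GOT1, KMO, KYNU, HAAO, IDO1, KYAT3, SHMT1 and SHMT2 were named in addition, after their values were seen. The genes and lists were chosen with earlier results of these data known. Some listed genes enter the counts and are not reported here by name. Of the listed genes, 4 were removed as too low (AADAT, AMT, HSD17B10 and SLC25A44), and 7 symbols were not matched to an identifier. Positions, exons and promoter windows are from RefSeq on Sscrofa11.1, where all 9 genes were found by symbol. Figures were made in Python with matplotlib.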

Additional observations from a re-analysis of the deposited data

Results flagged for a closer look

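For each of the 9 genes and each tissue, the gap between the highest or lowest library and its nearest neighbour was divided by the range of the 5 libraries and set against Dixon's 95% critical value for 5 values. Of 18 such groups, 6 exceeded it. The critical value flags about 1 in 20 by chance where values are normally distributed. CPM that rest on few reads are not, so no excess over chance is read from the 6. The genes also share their libraries, so these are not 6 separate events.

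In backfat 69, TAT was at 0.269 CPM, HPD at 1.41 CPM and TDO2 at 0.706 CPM, each far above the nearest other backfat library (0.0180, 0.0902 and 0.0721 CPM). In liver 67, SDS was at 44.1 CPM and HGD at 380 CPM, above the next liver libraries at 2.98 and 161 CPM, and BCKDHB was at 16.2 CPM, below the next at 40.2 CPM. Hepatocyte genes were highest in backfat 69 among backfat libraries, and liver 67 had the highest share of counts on mitochondrial genes, and their part in these values was not tested.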

How the results depend on the processing

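Of 174 values of the 9 genes under alternatives, 159 kept direction and side of the adjusted p. Scaling by library size alone raised the median of all genes by 0.71 and turned BCAT2 to 0.45 and BCKDHB to 0.067, neither past the adjusted p, and moved the calls from 1819 higher in liver and 1814 in backfat to 1340 and 2874. No member of the aromatic and serine groups was called (0 of 6) where at least 10 counts were required in every library, because TAT, HPD, HGD, TDO2 and SDS are removed there, and 1852 genes were called in all. Testing against the fold threshold with glmTreat gave 2413 genes. Leaving out single libraries gave 3716 to 3964 genes, 5 aromatic and serine genes each time and no branched-chain gene. With the replicate block, 1757 genes were called higher in liver and 1913 in backfat, and among the 9 genes only BCKDHA (0.45, adjusted p = 0.0551) changed its side of the adjusted p. DESeq2 gave no adjusted p for SDS. With backfat 69 and liver 67 both left out, an alternative chosen after seeing the data, BCKDHB passed the adjusted p (-0.82, adjusted p = 0.0137). Depth limits the backfat levels of TAT, HPD, HGD and TDO2, which rest on 17, 98, 9 and 47 read pairs.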
